A study of Mus musculus with 2 samples.

Results

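The Hoxd cluster is a row of homeobox genes on mouse chromosome 2, and 7 of its genes (Hoxd13, Hoxd11, Hoxd10, Hoxd9, Hoxd8, Hoxd4 and Hoxd3) were followed across stromal cell types of mouse colon and small intestine, both unperturbed. The members were chosen by name: every one of these 7 genes was taken, of 18545 genes listed for either tissue, with its level and its share of positive cells in each type that the authors labelled. All 7 were listed for the colon, and 5 were listed for the small intestine, where Hoxd13 and Hoxd11 were not listed. A gene that is not listed is not a zero, so those 2 genes are described in the colon alone.

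Hox genes encode transcription factors that give cells a position along the body axis. Within a cluster their order on the chromosome follows their order along that axis, with the low-numbered (anterior) genes at one end and the high-numbered (posterior) genes at the other, and genes of the same number in different clusters are paralogs. Adult fibroblasts are known to keep positional Hox expression, and the hindgut, which forms most of the colon, is a posterior domain in which Hoxd13 and Hoxa13 act during development.

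Cells were live cells negative for CD45 (a leukocyte marker) and CD326 (EpCAM, an epithelial marker), sorted from healthy untreated mice, from colon digested for 60 min and small intestine digested for 45 min. There was 1 library per tissue, made with a 3′ droplet kit that counts unique molecular identifiers (UMIs); the number, age, sex and strain of the mice are not given in the labels. The colon library held 6018 cells and 40684070 UMIs (median 6598 per cell), and the small intestinal library 9359 cells and 58134526 UMIs (median 5943). The authors' labels gave CD81- FBs (fibroblasts, 3631 colon and 2823 small intestinal cells), CD81+ trophocytes (fibroblasts, 875 and 1913), PDGFRa-high SEMFs (read here as subepithelial myofibroblasts, 1105 and 1109), LECs (lymphatic endothelial cells, 217 and 2498), BECs (blood endothelial cells, 53 and 524) and SMCs (smooth muscle cells, 125 and 468).

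With 1 library per tissue no test between tissues was possible, and no p-value is given. Levels are counts per 1e6 UMIs of the pooled cells of a type (CPM), with an exact Poisson 95% interval, and ratios carry an exact 95% interval from the binomial split of their UMIs. These intervals cover counting error only, not the spread between animals. Where one side of a ratio held 0 UMIs, that side was set to 3 UMIs and the ratio is a bound. Tissue, animal, sex, digestion time and library cannot be told apart.

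The labels were checked against marker genes. All 6 markers of SEMFs and of SMCs were highest in the type of that name in both tissues, as were 6 of 6 LEC markers in the colon and 5 of 6 in the small intestine, and 5 of 6 trophocyte markers in each. BEC markers were highest under their own label for 6 of 6 in the colon and 4 of 6 in the small intestine, where Kdr and Emcn were higher in LECs. CD81- FB markers were less distinct, with 3 of 4 highest under that label in the colon and 2 of 4 in the small intestine. Summed pericyte genes (5 of 5 listed) ranged from 63.0 to 154 CPM over the 3 colon fibroblast labels and from 141 to 1241 CPM in the small intestine, and immune genes (4 of 5 and 5 of 5 listed, with Ptprc at 0 in colon SEMFs and Cd3e at 0 in the small intestinal fibroblasts) from 11.5 to 76.5 and from 58.2 to 394 CPM. Xist was listed for the colon alone. Of the colon cells 2700 held Xist UMIs alone, 1751 held Y-linked UMIs alone, 1413 held neither and 154 held both, so the colon library held cells of both sexes. Summed Y-linked genes ranged from 63.0 to 106 CPM over the colon types and from 252 to 341 CPM over the small intestinal types. The libraries shared 21 cell barcodes.

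The 7 genes lie on the forward strand of GRCm38 chromosome 2 over 80.1 kb, chr2:74668310-74748442, from Hoxd13 (chr2:74668310-74671599) through Hoxd11 (chr2:74679557-74687016), Hoxd10 (chr2:74691924-74695105), Hoxd9 (chr2:74697727-74700208), Hoxd8 (chr2:74704615-74707933) and Hoxd4 (chr2:74711929-74729160) to Hoxd3 (chr2:74711927-74748442). Hoxd3 and Hoxd4 overlap on the same strand, and the antisense RNA Hoxd3os1 (chr2:74703248-74716130) overlaps Hoxd8, Hoxd4 and Hoxd3. How the counting treated strand and overlap is not given in the sources used here, so reads of these 4 genes may be split among them and their values are uncertain to that extent. Gm28309 overlaps Hoxd11 and Hoxd10 likewise.

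The 200 bases before a RefSeq start of 4 members are shown as examples of both colon patterns: Hoxd13 and Hoxd11 were nearly absent from lymphatic cells, and Hoxd9 and Hoxd8, like Hoxd4 and Hoxd3, were highest there. Sequences are from RefSeq (GRCm38.p6), forward strand, 5′ to 3′. Capitals mark matches, on either strand, to TTTAT (letters that posterior Hox proteins can bind), TGATTNAT (letters that Hox and Pbx proteins can bind together) and CCAAT.
Hoxd13, chr2:74668025-74668224: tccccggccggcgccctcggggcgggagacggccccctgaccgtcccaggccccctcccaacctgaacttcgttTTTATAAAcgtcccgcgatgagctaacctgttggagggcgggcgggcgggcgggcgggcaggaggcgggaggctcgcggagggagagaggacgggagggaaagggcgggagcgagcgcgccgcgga
Hoxd11, chr2:74682123-74682322: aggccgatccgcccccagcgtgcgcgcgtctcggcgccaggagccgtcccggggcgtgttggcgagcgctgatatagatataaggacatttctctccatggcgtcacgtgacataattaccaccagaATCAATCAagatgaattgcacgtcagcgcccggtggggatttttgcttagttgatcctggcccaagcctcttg
Hoxd9, chr2:74697527-74697726: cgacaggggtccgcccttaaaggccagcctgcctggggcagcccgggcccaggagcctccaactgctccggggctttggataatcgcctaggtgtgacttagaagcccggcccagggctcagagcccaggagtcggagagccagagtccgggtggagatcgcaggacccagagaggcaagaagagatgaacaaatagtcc
Hoxd8, chr2:74704415-74704614: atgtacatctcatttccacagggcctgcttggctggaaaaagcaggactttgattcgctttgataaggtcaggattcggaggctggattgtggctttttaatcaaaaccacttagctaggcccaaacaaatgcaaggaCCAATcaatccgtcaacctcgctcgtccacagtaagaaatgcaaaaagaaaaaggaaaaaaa
The Hoxd13 window held 26 CG pairs and 2 overlapping TTTAT matches. The Hoxd11 window, at the second of its 2 RefSeq starts, held 18 CG pairs and 1 TGATTNAT match. The Hoxd9 window held 9 CG pairs and none of the 3 motifs, and it overlaps an exon of the antisense gene Gm28793. The Hoxd8 window held 5 CG pairs and 1 CCAAT match. Among 32851 RefSeq windows of 200 bases the median was 5 CG pairs, and 30.8% held TTTAT, 2.23% TGATTNAT and 29.3% CCAAT. A match is a description of the letters and not a binding site.

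Hoxd13, the most posterior gene of the cluster, was highest in colon trophocytes. Its level was 14.3 CPM (11.5 to 17.5, 91 UMIs) in trophocytes, 5.83 CPM (4.92 to 6.86, 144 UMIs) in CD81- FBs, 2.59 CPM (2 UMIs) in SMCs and 0.672 CPM (0.218 to 1.57, 5 UMIs) in SEMFs, with 0 UMIs in LECs and BECs. Trophocytes exceeded CD81- FBs by 1.29 on the log2 scale (0.90 to 1.68) and SEMFs by 4.41 (3.13 to 6.07), while the intervals of SMCs overlap those of their neighbours in the order. Of the 217 LECs, 0 held a Hoxd13 UMI, and a floor of 3 UMIs would correspond to a share of 1.38%. After each cell was thinned to 3000 UMIs, so that depth was equal, 4.53% of trophocytes and 1.47% of CD81- FBs held a Hoxd13 UMI (7.20% and 3.19% unthinned). In cells with Y-linked UMIs alone trophocyte Hoxd13 was 17.2 CPM, against 9.64 CPM in cells with Xist UMIs alone, a log2 ratio of 0.84 (0.10 to 1.58). The part of sex in the subtype difference was not tested.

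Hoxd11, also a posterior gene, did not follow Hoxd13 among the fibroblast subtypes of the colon. It stood at 30.3 CPM (28.2 to 32.6, 749 UMIs) in CD81- FBs, 29.6 CPM (25.8 to 33.8, 220 UMIs) in SEMFs, 22.3 CPM (18.8 to 26.3, 142 UMIs) in trophocytes and 19.4 CPM (10.9 to 32.0, 15 UMIs) in SMCs. CD81- FBs and SEMFs did not differ beyond counting error (log2 0.04, -0.18 to 0.26), and SEMFs exceeded trophocytes by 0.41 (0.10 to 0.72). LECs held 1 Hoxd11 UMI (0.939 CPM, 0.0238 to 5.23) and BECs held 1. Of the 7 genes, 1 (Hoxd13) was at least 2-fold higher in trophocytes than in SEMFs, against 12.4% of all genes tested (those with 10 or more UMIs in the compared cells), and 3 (Hoxd13, Hoxd4 and Hoxd3) were at least 2-fold higher in trophocytes than in CD81- FBs, against 7.59%. The Hoxd4 and Hoxd3 counts behind this are 9 and 10 UMIs in trophocytes. Against SEMFs, where it had 5 UMIs, Hoxd13 passed the minimum of 10 UMIs through trophocytes alone.

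Hoxd10 was found in every compared colon type and, in the small intestine, almost only in LECs among the 6 compared types. In the colon it was 9.89 CPM (7.60 to 12.7) in trophocytes, 9.55 CPM (7.46 to 12.04) in SEMFs, 8.62 CPM (7.50 to 9.86) in CD81- FBs, 7.77 CPM in SMCs (6 UMIs), 7.42 CPM in BECs (2 UMIs) and 6.57 CPM (2.64 to 13.5, 7 UMIs) in LECs, and no neighbours in this order differ beyond counting error. In the small intestine LECs held 51 Hoxd10 UMIs (4.55 CPM, 3.39 to 5.98), BECs held 1, and the 3 fibroblast labels and SMCs held 0. The upper limit for small intestinal CD81- FBs is 0.183 CPM.

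**Figure D1:**
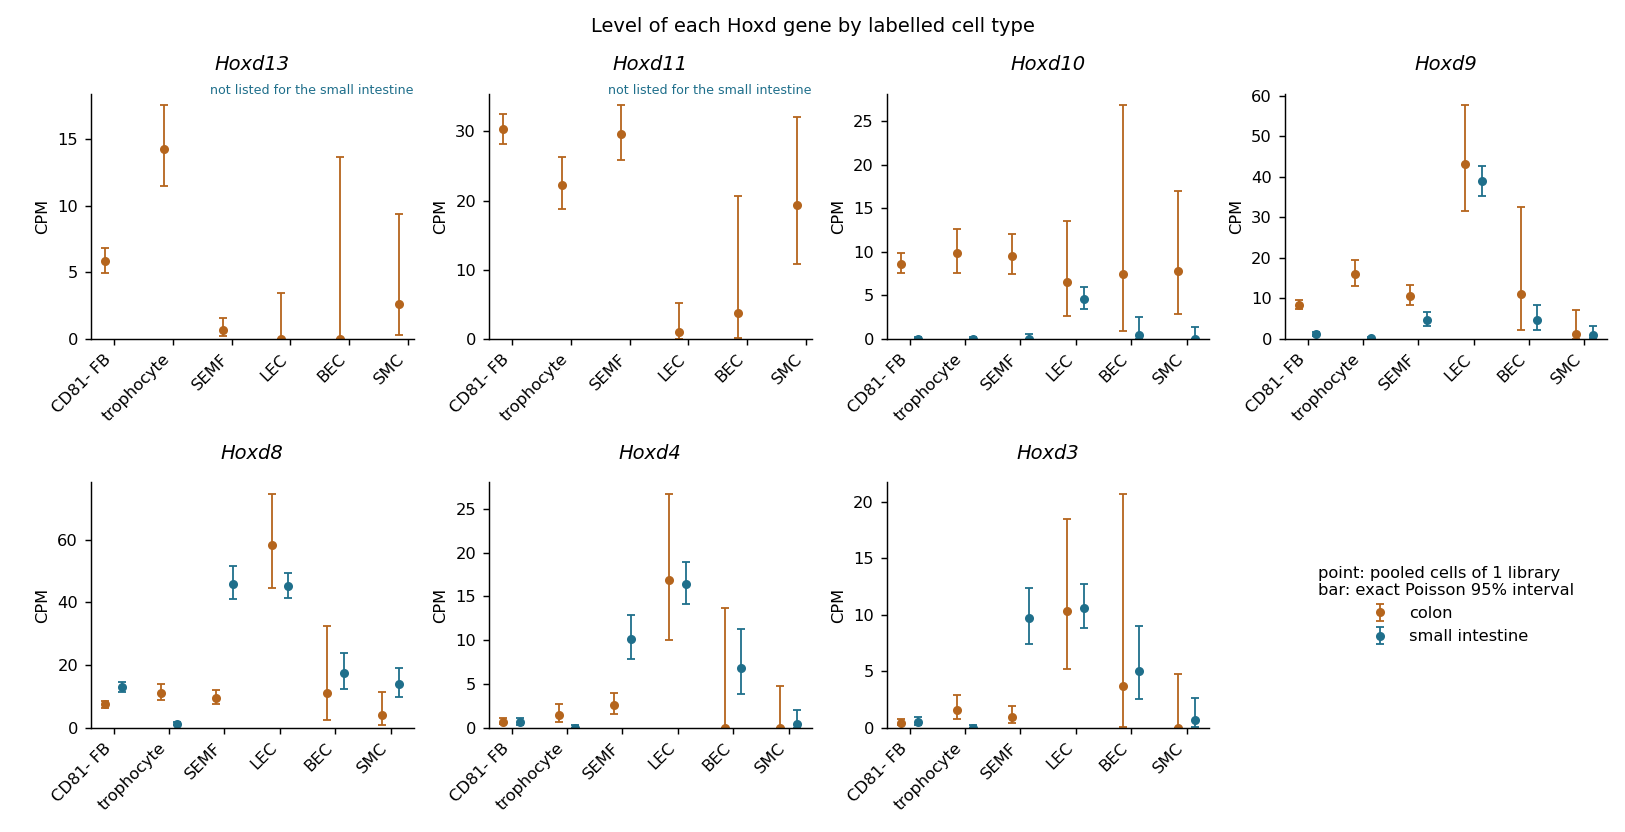
Level in CPM (linear axis, from 0) of each Hoxd gene in 6 labelled cell types of the colon (orange) and small intestine (blue); points are the pooled cells of 1 library and bars exact Poisson 95% intervals. The LEC points are highest for Hoxd9, Hoxd4 and Hoxd3 in both tissues, with SEMFs close for Hoxd3 in the small intestine (9.66 against 10.6 CPM), and for Hoxd8 in the colon, while Hoxd13 and Hoxd11 are near 0 in colon LECs.

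Hoxd9, a mid-cluster gene, was highest in LECs in both tissues. In the colon it was 43.2 CPM (31.6 to 57.6, 46 UMIs) in LECs, 16.0 CPM (13.1 to 19.4) in trophocytes, 10.6 CPM (8.41 to 13.2) in SEMFs and 8.46 CPM (7.35 to 9.69) in CD81- FBs. In the small intestine it was 38.9 CPM (35.3 to 42.7, 436 UMIs) in LECs, 4.60 CPM (3.10 to 6.57, 30 UMIs) in SEMFs, 4.56 CPM in BECs (10 UMIs), 1.19 CPM (0.763 to 1.77, 24 UMIs) in CD81- FBs, 1.07 CPM in SMCs (3 UMIs) and 0.200 CPM in trophocytes (3 UMIs). The fibroblast subtypes thus stood in a different order in each tissue, with trophocytes the highest of the 3 in the colon and the lowest in the small intestine, although the lowest small intestinal value rests on 3 UMIs, all of them in the 270 trophocytes that also held a UMI of a LEC gene.

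Hoxd8, just anterior to Hoxd9, was detected in all 6 compared types of both tissues. In the colon LECs led with 58.2 CPM (44.6 to 74.6, 62 UMIs), followed by trophocytes with 11.2 CPM (8.71 to 14.1), SEMFs with 9.55 CPM (7.46 to 12.04) and CD81- FBs with 7.41 CPM (6.37 to 8.56). In the small intestine SEMFs had 46.0 CPM (40.9 to 51.5, 300 UMIs) and LECs 45.2 CPM (41.4 to 49.4, 507 UMIs), which did not differ beyond counting error (LEC over SEMF -0.02, -0.23 to 0.19 on the log2 scale). BECs followed with 17.3 CPM (12.3 to 23.8), SMCs with 13.9 CPM (39 UMIs), CD81- FBs with 12.9 CPM (11.4 to 14.6) and trophocytes with 1.20 CPM (0.710 to 1.89, 18 UMIs). At 3000 UMIs per cell, 12.6% of small intestinal SEMFs held a Hoxd8 UMI, against 3.86% of CD81- FBs and 0.429% of trophocytes (22.0%, 8.29% and 0.836% unthinned). Since pericyte genes were highest among the small intestinal fibroblasts in SEMFs, Hoxd8 was also read within them by pericyte-gene UMIs: 45.2 CPM in the 155 cells with 0 to 2, 44.0 CPM in the 662 with 3 to 9 and 49.2 CPM in the 292 with 10 or more. In colon SEMFs, which held fewer such UMIs, Hoxd8 was 7.84 CPM (5.80 to 10.4) in the 966 cells with 0 to 2 and 18.8 CPM (11.8 to 28.4, 22 UMIs) in the 138 with 3 to 9, so within the second class the colon was below the small intestine by less than in all SEMFs. Colon Hoxd11 likewise stood at 27.0 CPM and 43.5 CPM in these classes. The part of immune transcripts, at 394 CPM in small intestinal and 16.8 CPM in colon SEMFs, was not tested.

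Hoxd4 and Hoxd3, the anterior members, were low in every fibroblast label but one. Small intestinal SEMFs had 10.1 CPM (7.83 to 12.9, 66 UMIs) of Hoxd4 and 9.66 CPM (7.42 to 12.4, 63 UMIs) of Hoxd3. CD81- FBs of the same library had 0.595 CPM (12 UMIs) and 0.496 CPM (10 UMIs), and the 1913 trophocytes had 0 UMIs of either. Colon SEMFs had 2.55 CPM (1.54 to 3.99) of Hoxd4 and 0.941 CPM (0.378 to 1.94) of Hoxd3, and the 4 other values in colon fibroblasts lay between 0.405 and 1.57 CPM. In LECs both genes were near equal in the 2 tissues, at 16.9 and 16.4 CPM for Hoxd4 and 10.3 and 10.6 CPM for Hoxd3 (colon first).

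Within small intestinal fibroblasts Hoxd9, Hoxd8, Hoxd4 and Hoxd3 were highest in SEMFs and lowest in trophocytes, while Hoxd10 had 0 UMIs in all 3 labels. These 4 were the members that could be tested, and all 4 were at least 2-fold higher in SEMFs than in trophocytes, against 20.7% of all genes tested, with log2 ratios of 5.26 (4.58 to 6.04) for Hoxd8, 4.53 (2.84 to 6.88) for Hoxd9, at least 5.66 for Hoxd4 and at least 5.60 for Hoxd3. Hoxd4 and Hoxd3 had 0 trophocyte UMIs and Hoxd9 had 3, so all of these passed the minimum of 10 UMIs through SEMFs alone. The minimum thus partly set the direction of that count. All 4 members were also at least 2-fold higher in SEMFs than in CD81- FBs, against 10.8%. There the anterior genes showed the larger ratios, 4.28 for Hoxd3 and 4.09 for Hoxd4 against 1.95 for Hoxd9 and 1.83 for Hoxd8. Hoxd3os1, the antisense RNA that overlaps the anterior genes, stood at 28.4 CPM in SEMFs, 5.90 CPM in CD81- FBs and 0.266 CPM (4 UMIs) in trophocytes, the same order.

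Between tissues, the sign of the ratio depended on both the gene's place in the cluster and the fibroblast subtype. In trophocytes each of the 5 members listed for both tissues was higher in the colon: Hoxd10 by at least 5.63 on the log2 scale, Hoxd9 by 6.33 (4.74 to 8.63), Hoxd8 by 3.22 (2.46 to 4.05), Hoxd4 by at least 2.82 and Hoxd3 by at least 2.98. In SEMFs Hoxd10 (at least 4.38) and Hoxd9 (1.21, 0.58 to 1.87) were higher in the colon, whereas Hoxd8 (-2.27, -2.66 to -1.89), Hoxd4 (-1.99, -2.80 to -1.23) and Hoxd3 (-3.36, -4.73 to -2.23) were lower. CD81- FBs lay between, with Hoxd10 (at least 5.86) and Hoxd9 (2.83, 2.22 to 3.50) higher, Hoxd8 lower by less than 2-fold (-0.81, -1.09 to -0.53), and Hoxd4 (0.12) and Hoxd3 (-0.29) indistinguishable at this depth. Hoxd3os1 went the way of the anterior genes in 2 labels, at 3.76 (2.21 to 5.75) in trophocytes and -1.89 (-2.34 to -1.45) in SEMFs. In CD81- FBs, where Hoxd4 and Hoxd3 showed no clear difference, Hoxd3os1 was lower in the colon (-1.31, -1.78 to -0.84).

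**Figure D2:**
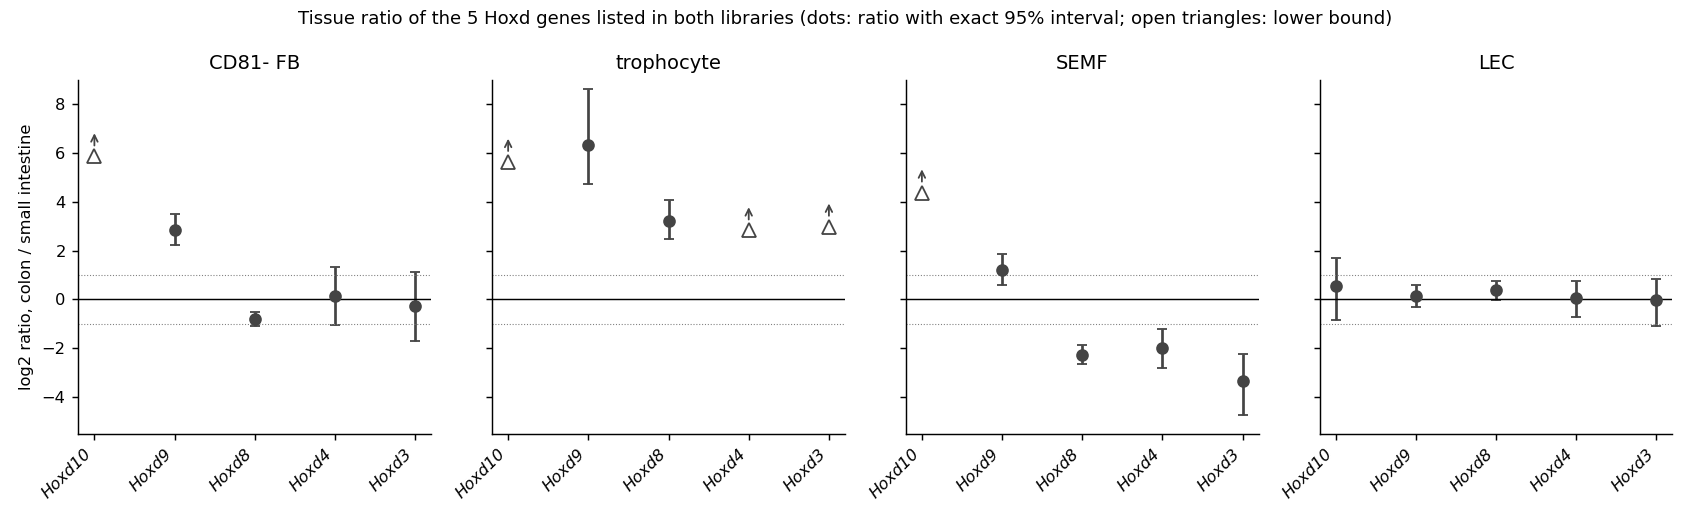
Log2 ratio of the colon level to the small intestinal level for the 5 Hoxd genes listed in both libraries, from posterior (left) to anterior (right), in 3 fibroblast labels and LECs; dots carry exact 95% intervals, open triangles are lower bounds and dotted lines mark 2-fold. All 5 genes are above 0 in trophocytes, the order crosses 0 between Hoxd9 and Hoxd8 in SEMFs, and every interval includes 0 in LECs.

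Counted at 2-fold, 4 of 4 tested members were higher in the colon in trophocytes (9.8% of all genes tested there), 2 of 5 were higher and 3 of 5 lower in SEMFs (9.88% and 17.4%), and 2 of 5 were higher in CD81- FBs (10.7%). Hoxd4, with 9 UMIs in trophocytes, fell under the minimum of 10 UMIs for this count. In trophocytes Hoxd10 and Hoxd3 had 0 small intestinal UMIs and Hoxd9 had 3, so all of these passed that minimum through the colon alone. The minimum thus partly set the direction of that count. In SEMFs and CD81- FBs, Hoxd10 likewise had 0 small intestinal UMIs and passed through the colon alone. Hoxd3 in SEMFs, with 7 colon UMIs, passed through the small intestine alone. Over the 3 fibroblast labels pooled, 2 of 5 were higher and 1 lower, against 10.4% and 10.2%. Hoxd10, 1 of the 2 higher, passed through the colon alone there too. Pooling combined the opposite signs: Hoxd4 was -0.71 (-1.28 to -0.16) and Hoxd3 -1.32 (-2.01 to -0.67) in pooled fibroblasts, although both had 0 UMIs in small intestinal trophocytes and 9 and 10 UMIs in colon ones. The median log2 ratio of the members was at least 4.43 in trophocytes, over the 4 tested with 2 of them at their lower bound, -1.99 in SEMFs and 0.15 in LECs, beside -0.08, -0.30 and -0.16 for all genes tested. For genes with 100 or more UMIs the median ratio was -0.11 in trophocytes, -0.33 in SEMFs and -0.27 in LECs, and relative to it every ratio of a member with 10 or more UMIs in these 3 labels and in pooled fibroblasts kept its sign except Hoxd3 in LECs, which went from -0.04 to 0.23.

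In LECs no tissue difference in CPM beyond counting error was found over all cells. Their colon to small intestine log2 ratios were 0.53 (-0.86 to 1.68) for Hoxd10, 0.15 (-0.32 to 0.59) for Hoxd9, 0.36 (-0.04 to 0.75) for Hoxd8, 0.04 (-0.75 to 0.74) for Hoxd4 and -0.04 (-1.08 to 0.85) for Hoxd3. None of the 5 passed 2-fold in either direction, against 10.9% of all genes tested higher and 14.4% lower. For Hoxd9, Hoxd8 and Hoxd4 the intervals exclude a 2-fold difference in CPM. For Hoxd10 and Hoxd3 a 2-fold difference in one direction lies within the interval. Relative to the median gene, at -0.27, Hoxd8 was 0.63 and Hoxd4 0.31. With the intervals moved by the same amount, that of Hoxd8 lies above the median gene, and those of Hoxd8 and Hoxd4 reach 2-fold. With colon LECs holding Y-linked UMIs alone, Hoxd4 was 1.14, past 2-fold, and Hoxd8 was 0.83. The colon held 217 LECs and the small intestine 2498, with median depths of 4545 and 4118 UMIs.

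In the colon the LEC level, read against fibroblasts, ran from low to high along the cluster from its posterior end. The LEC over fibroblast log2 ratio was at most -1.15 for Hoxd13, -4.94 (-10.25 to -2.46) for Hoxd11, -0.46 (-1.78 to 0.60) for Hoxd10, 2.09 (1.62 to 2.54) for Hoxd9, 2.79 (2.37 to 3.18) for Hoxd8, 3.89 (3.01 to 4.71) for Hoxd4 and 3.88 (2.72 to 4.94) for Hoxd3. The ratio thus changed sign between Hoxd10 and Hoxd9. Of the 7, 4 were at least 2-fold higher and 2 at least 2-fold lower in LECs, against 22.7% and 15.9% of all genes tested. The lower genes, Hoxd13 with 0 LEC UMIs and Hoxd11 with 1, passed the minimum of 10 UMIs through fibroblasts alone. The minimum thus partly set the direction of that count. The small intestine did not show the colon order along the cluster. All 5 listed members were at least 2-fold higher there in LECs than in fibroblasts, against 14.5%, with the largest ratios at the posterior end: Hoxd10 by at least 5.98, Hoxd9 by 4.83 (4.43 to 5.26), Hoxd8 by 1.70 (1.53 to 1.88), Hoxd4 by 3.13 (2.74 to 3.54) and Hoxd3 by 2.60 (2.17 to 3.04). In this count Hoxd10 had 0 fibroblast UMIs and passed the minimum through LECs alone. All 5 were also at least 2-fold higher in LECs than in BECs there, against 16.0%, from 1.08 for Hoxd3 to 3.32 (0.78 to 8.65) for Hoxd10. Hoxd10 had 1 BEC UMI and passed the minimum through LECs alone in this count too.

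**Figure D3:**
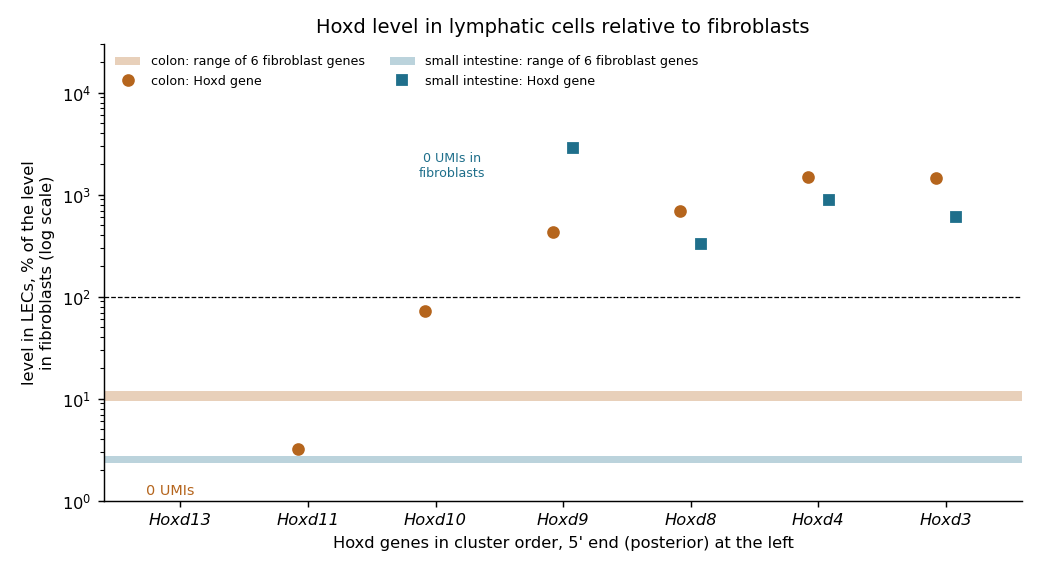
Level of each Hoxd gene in LECs as a percentage of its level in the pooled fibroblasts of the same library (log axis), in cluster order; bands show the range of 6 fibroblast genes measured the same way. Hoxd9, Hoxd8, Hoxd4 and Hoxd3 lie above 100% in both tissues, Hoxd10 lies at 72.9% in the colon, and Hoxd11 lies below the colon band at 3.25%.

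Fibroblast transcripts in LECs gave a measure of RNA from other cells. Over 6 fibroblast genes, the level in LECs was 9.47 to 11.98% of that in fibroblasts in the colon and 2.36 to 2.76% in the small intestine. Hoxd11 in colon LECs, at 3.25% of its fibroblast level (1 UMI), was below that range, and the source of this UMI was not tested. Hoxd10 stood at 72.9%, Hoxd9 at 426% and Hoxd8 at 690%. In the 73 colon LECs without a UMI of any of the 6 genes, Hoxd8 was 66.3 CPM (21 UMIs), Hoxd9 44.2 (14 UMIs) and Hoxd4 25.3 (8 UMIs). Hoxd3 and Hoxd10 were each 6.32 CPM there (2 UMIs, 0.765 to 22.8), with 0 UMIs of Hoxd13 and Hoxd11. In the 1177 such small intestinal LECs the values were 45.1 for Hoxd8, 41.7 for Hoxd9, 17.8 for Hoxd4, 10.4 for Hoxd3 and 4.49 for Hoxd10. In the small intestine the LEC levels were thus as large, or nearly so, in cells without fibroblast UMIs, as were Hoxd9 and Hoxd8 in the colon. Colon Hoxd4, Hoxd3 and Hoxd10 rest on too few UMIs in these cells for a comparison.

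The reverse measure, 5 LEC genes in other small intestinal types, was 0.110 to 0.223% of the LEC level in CD81- FBs, 0.149 to 0.323% in SEMFs and 5.30 to 9.47% in BECs. Hoxd9 stood at 3.06%, 11.8% and 11.7% of its LEC level in these types, so the BEC value is close to that range. BEC Hoxd8, Hoxd4 and Hoxd3 stood at 38.3%, 41.7% and 47.3%. In the 256 small intestinal BECs without a fibroblast UMI, Hoxd8 was 16.9 CPM (16 UMIs), Hoxd4 6.35 (6 UMIs), Hoxd3 5.29 (5 UMIs) and Hoxd9 1.06 (1 UMI). In the colon 53 BECs held 10 UMIs of the 7 genes in all, and no order among them can be read. In SMCs the 6 fibroblast genes reached 13.6 to 73.3% of the fibroblast level in the colon and 17.1 to 58.1% in the small intestine, and the part of fibroblast RNA in the Hoxd values of SMCs was not tested.

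In colon fibroblasts the neighbouring genes Hoxd8 to Hoxd11 were detected in the same cells more often than in cells without Hoxd11, clearly so in SEMFs. At 3000 UMIs per cell, 11 of 89 SEMFs with a Hoxd11 UMI also held Hoxd9 (12.4%, Clopper-Pearson 95% interval 6.33 to 21.0), against 21 of 971 without (2.16%). Hoxd10 was found in 10 of 89 (11.2%, 5.52 to 19.7) against 23 of 971 (2.37%), and Hoxd8 in 11 of 89 against 20 of 971 (2.06%). In CD81- FBs the shares were lower and in the same direction, at 5.62% (3.18 to 9.10) against 1.81% for Hoxd9 and 5.24% (2.90 to 8.64) against 1.81% for Hoxd8. For Hoxd10 the values there were 4.87% (2.62 to 8.18) against 2.16% (1.68 to 2.72), with intervals that touch. In trophocytes, with 43 Hoxd11-positive cells, the intervals overlap for all 3. Hoxd13 in CD81- FBs was found in 2.62% of cells with Hoxd11 and 1.38% without, and those intervals overlap too. In small intestinal LECs the pair Hoxd8 and Hoxd9 showed no such link: Hoxd9 was found in 28 of 236 cells with Hoxd8 (11.9%, 8.03 to 16.7) and 180 of 1710 without (10.5%).

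**Figure D4:**
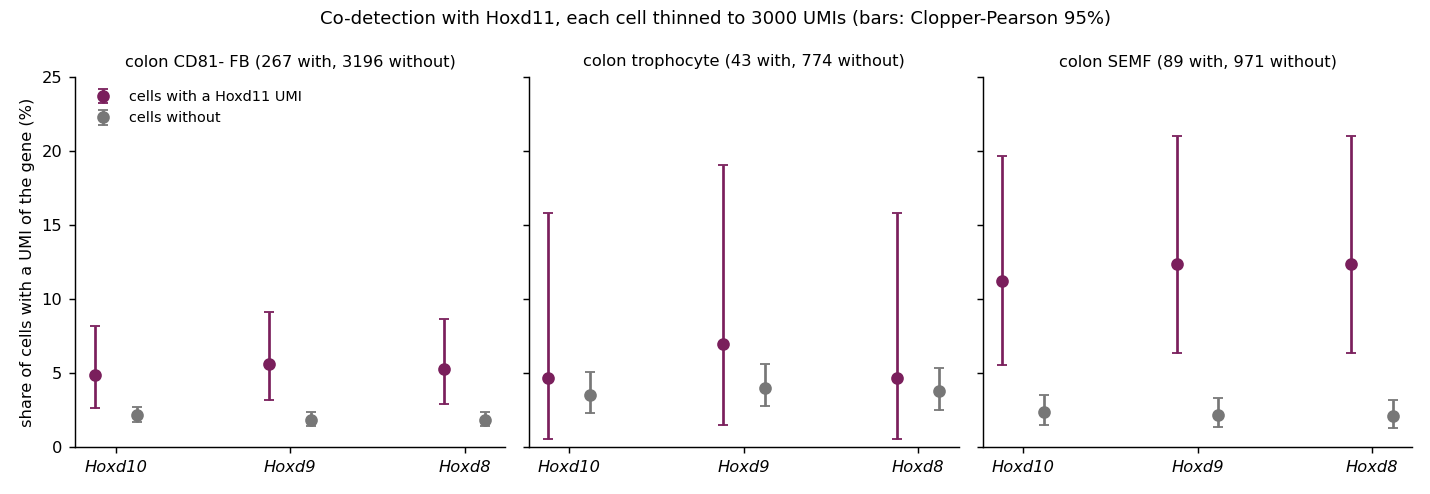
Share of colon cells (%, linear axis from 0) with a UMI of Hoxd10, Hoxd9 or Hoxd8 among cells with (purple) and without (grey) a Hoxd11 UMI, each cell thinned to 3000 UMIs, in 3 fibroblast labels; bars are Clopper-Pearson 95% intervals. The intervals are apart for all 3 genes in SEMFs and for Hoxd9 and Hoxd8 in CD81- FBs, and they overlap in trophocytes.

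Colon fibroblasts were then split by their summed UMIs of Hoxd8, Hoxd9, Hoxd10 and Hoxd11, a split chosen after the co-detection values were seen. The classes are ranges of a sparse count and not cell types: 2793 CD81- FBs had 0, 527 had 1 and 311 had 2 or more, with median depths of 6589, 6855 and 7409 UMIs. Hoxa13, the paralog of Hoxd13 in the Hoxa cluster, ran the other way, at 44.0 CPM (41.0 to 47.1), 28.5 CPM (23.4 to 34.5) and 12.9 CPM (8.77 to 18.3). The log2 ratio of 2 or more to 0 was -1.77 (-2.34 to -1.25). Anterior and mid-cluster Hoxa genes were higher with more Hoxd UMIs, with Hoxa3 at 7.74, 13.7 and 21.2 CPM, Hoxa7 at 14.7, 19.4 and 22.9 CPM and Hoxa9 at 22.4, 41.2 and 42.1 CPM. Hoxa10 (log2 0.13, -0.11 to 0.36) and Hoxa11 (-0.21, -0.56 to 0.11) moved little. Hoxd13, in the same cluster as the genes that set the classes, was 5.32, 8.89 and 5.00 CPM, with 12 UMIs in the last class. Its log2 ratio of -0.09 has an interval of -1.09 to 0.78, too wide to exclude a 2-fold fall. Hoxd4, which did not set the classes, had 1 UMI in the 0 class and 10 in the class of 2 or more (log2 6.27, 3.46 to 11.70).

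Hpse2, which encodes a heparanase-like protein, was 52.4, 162 and 233 CPM over these 3 classes, and Stmn2, which encodes a microtubule regulator of the stathmin family, was 209, 129 and 49.1 CPM. The 5 genes with the highest ratio in CD81- FBs were Egfem1, Saa3 (a serum amyloid A protein), Hunk, Cxcl14 (a chemokine, 2.39) and Slc6a11 (a GABA transporter), and the 5 with the lowest were Col28a1, Kcnq5 (a potassium channel), C430049B03Rik, Stmn2 and Tbxas1 (thromboxane synthase). Among all genes other than the 4, 4.63% were at least 2-fold higher and 4.29% lower. Of the 2 tested members outside the 4, 1 (Hoxd4) was higher and 0 lower. Hoxd4, with 1 UMI in the 0 class, passed the minimum of 10 UMIs through the class of 2 or more alone. The minimum thus partly set the direction of that count.

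SEMFs showed the same direction for the ends of the comparison. Hoxa13 was 46.0, 11.9 and 21.6 CPM in the 902, 81 and 122 cells with 0, 1 and 2 or more Hoxd UMIs (log2 -1.09, -1.89 to -0.38, for 2 or more over 0), and Hpse2 was 228, 791 and 933 CPM. The middle class did not lie between the others for Hoxa13 or for Hoxa3 (14.0, 3.97 and 26.7 CPM). In SEMFs with Xist UMIs alone the Hoxa13 ratio was -1.88 and in those with Y-linked UMIs alone -0.47; in CD81- FBs the values were -2.01 and -1.64. In trophocytes Hoxa13 had 65 UMIs in 627 cells of the 0 class and 1 UMI in 87 cells with 2 or more (-3.49, -8.81 to -0.96). Hpse2 was higher there too (1.52, 1.13 to 1.90), but Hoxa9 was lower, at 13.2 CPM against 4.01 CPM (3 UMIs; -1.71, -4.03 to -0.09), the opposite of CD81- FBs, and the intervals of Hoxa3 and Hoxa7 include 0.

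**Figure D5:**
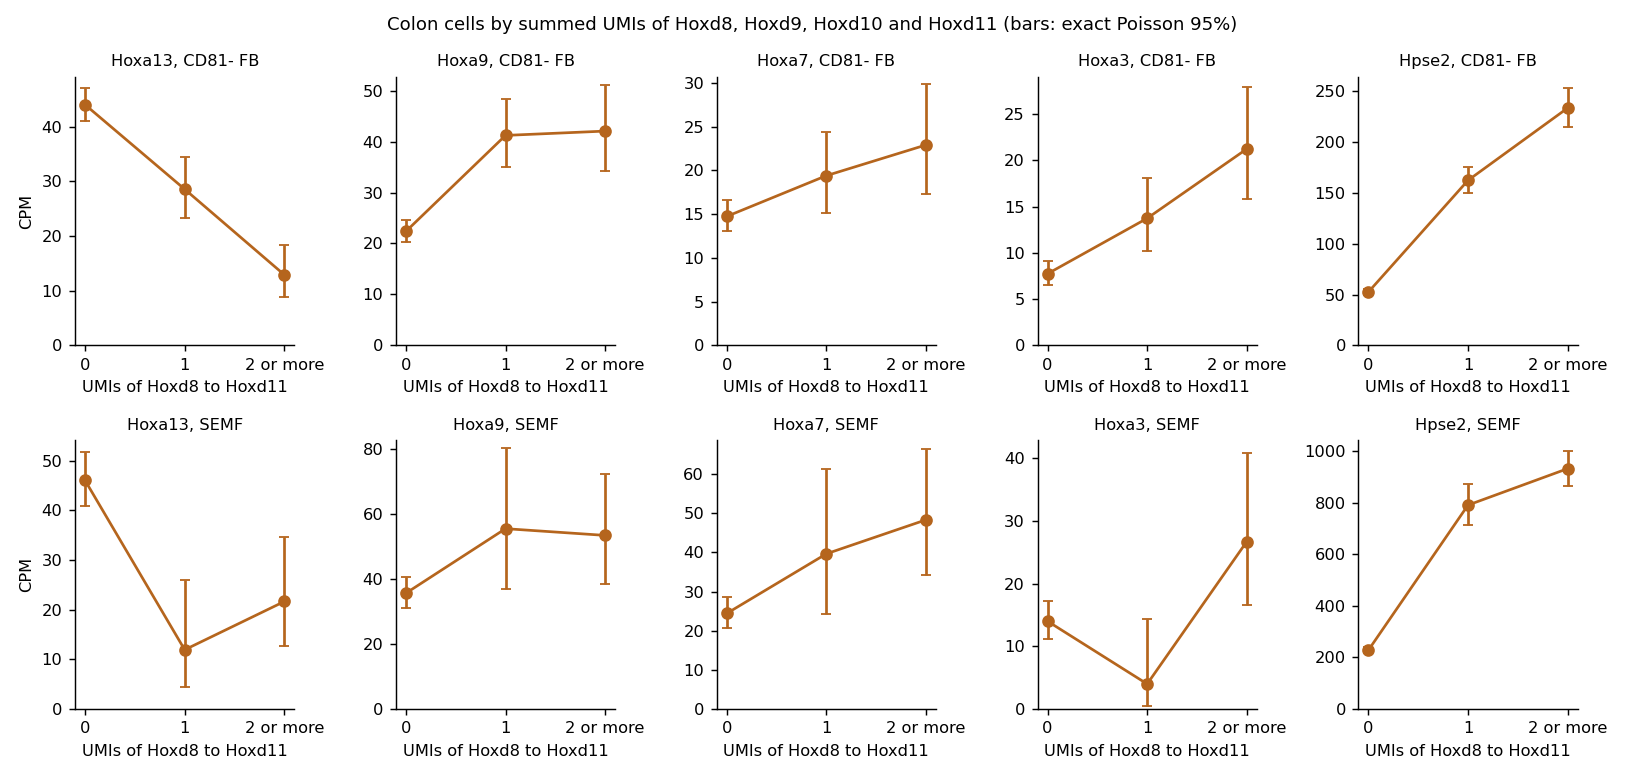
Level in CPM (linear axes, from 0) of Hoxa13, Hoxa9, Hoxa7, Hoxa3 and Hpse2 in colon CD81- FBs (top) and SEMFs (bottom) with 0, 1 or 2 or more summed UMIs of Hoxd8 to Hoxd11; bars are exact Poisson 95% intervals. In CD81- FBs Hoxa13 goes from 44.0 to 12.9 CPM while Hpse2 goes from 52.4 to 233 CPM.

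The other genes of the pathway were read in pooled fibroblasts. Among all genes tested there, 10.4% were at least 2-fold higher in the colon and 10.2% lower. Of 12 genes in and around the Hoxd cluster, 6 were listed for both tissues and 0 of these differed by 2-fold; the neighbour Lnpk, a gene of the endoplasmic reticulum, had a log2 ratio of 0.14. The gene next to Hoxd13, Evx2, was listed for the colon alone, with 12 UMIs in CD81- FBs, 11 in trophocytes and 0 in SEMFs. Hoxd1 and Hoxd12 were listed for neither tissue.

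Among 17 paralogs in the Hoxa, Hoxb and Hoxc clusters, 7 were listed for both tissues and 6 were tested, of which 1 was at least 2-fold higher in the colon (Hoxa9, 6.06) and 5 lower (Hoxb3 -3.20, Hoxa3 -1.09, Hoxb4 -2.87, Hoxa4 -4.17 and Hoxb8 -4.02). Hoxa10 (65.0 CPM), Hoxa11 (37.3 CPM) and Hoxa13 (34.7 CPM) were listed for the colon alone, and Hoxc8 (90.9 CPM), Hoxc4 (31.3 CPM), Hoxc9 (13.2 CPM) and Hoxc10 (1.13 CPM) for the small intestine alone. In small intestinal LECs Hoxc8 was 3.30 CPM and Hoxc4 1.25 CPM, far under their fibroblast levels, unlike Hoxd8 and Hoxd4. Of 9 TALE cofactors, homeodomain partners of Hox proteins, 0 were at least 2-fold higher in the colon and those lower included Pbx3 (-1.99), Meis1 (-1.87) and Meis2 (-1.31), with a list median of -0.08. Of 16 Polycomb and trithorax genes, whose products keep Hox genes silent or active, 0 were at least 2-fold lower in the colon, with a median of -0.13. The median over all genes tested was -0.14, with 10.4% at least 2-fold higher in the colon and 10.2% lower.

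The genes whose level over types was most like a member's were taken by Pearson r of log2(CPM + 1) over the 12 type and tissue points, or the 6 colon points for Hoxd13 and Hoxd11; with so few points, which share their libraries, r is a description. Hoxd10 was most like Hoxa9 (0.964), and Hoxd3os1 stood among the first 5 for both Hoxd8 (0.903) and Hoxd3 (0.913), genes it overlaps. Hoxd9 was most like Vps26a (0.942) and Hoxd4 most like Fxyd6 (0.964). Over the colon types Hoxd13 was most like Tnfaip6 (0.995) and Hoxd11 most like Hyou1 (0.995).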

How the data were processed

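Cells from colon (1 library) and small intestine (1 library) were made into 3′ v3.1 droplet libraries. Per the submitters' processing notes, Cell Ranger 7.1.0, Seurat 4 and genome build mm10 were used; parameters, filters and the treatment of strand are not given in the sources used here. The deposited matrices hold raw UMI counts per gene and cell, and the deposited natural log matrices hold ln(1 + UMIs per 10000) of the same counts, recomputed here to within 6.2e-15. Cell types are the labels that the authors deposited; 3 colon endothelial labels (45 CapECs, 4 ArtECs and 4 VenECs) were pooled as BECs, and types under 50 cells (colon pericyte labels, Proliferating cells of both tissues) were left out of comparisons.

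UMI counts were summed over the cells of a type and divided by all their UMIs in a script (Python 3.11.15, numpy 2.4.6, scipy 1.17.1, pandas 2.3.3, matplotlib 3.10.9). A 3′ UMI level is not divided by length, so levels are compared between types and not between genes. Counts against all genes used genes with 10 or more UMIs in the compared cells and a threshold of 2-fold. Shares were taken with every cell thinned to 3000 UMIs, leaving out shallower cells. No doublet caller was run. With 1 library per group no count model, test or p-value was used; the calculations were tested on simulated data. The 7 members, the gene lists and the marker lists were chosen with earlier results of these data known. Genes are named by the fixed rule of taking all members, list genes beyond 2-fold, and the 5 genes most like each member; Hpse2, Stmn2 and the genes of the UMI classes were chosen after their values were seen. Results for some genes of the lists are not reported here.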

Additional observations from a re-analysis of the deposited data

Results flagged for a closer look

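Among the Hoxd genes with 10 or more UMIs in each subtype over both tissues, the tissue ratio had opposite signs in trophocytes and SEMFs for Hoxd3 and Hoxd8. Hoxd4 did so too (at least 2.82 and -1.99) but with 9 UMIs in trophocytes. The log2 ratio of colon to small intestine of Hoxd3 was at least 2.98 in trophocytes (10 UMIs against 0) and -3.36 in SEMFs (7 against 63), a difference of at least 6.34. That of Hoxd8 was 3.22 in trophocytes and -2.27 in SEMFs, a difference of 5.49. With 1 library per tissue neither difference was tested.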

How the results depend on the processing

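Of 28 tissue ratios of Hoxd genes, 0 changed sign in a called value; 228 recomputed values stayed within the counting interval and 28 left it. Differences of mean natural log values, converted to log2 units, are another scale and account for 18 of these. They were 0.0778 for Hoxd10 and 0.0692 for Hoxd9 in fibroblasts, and 0.0801 for Hoxd8 in trophocytes and -0.25 in SEMFs. With colon cells holding Y-linked UMIs alone, Hoxd8 in LECs was 0.83 and Hoxd4 was 1.14, and with 3 fibroblast subtypes weighted equally pooled Hoxd8 was -1.10. For CD81- FBs the Hoxa13 ratio was -0.97 when cells with 1 or more Hoxd UMIs were set against 0. Without the UMI minimum, 2797 instead of 1431 genes were at least 2-fold higher in colon LECs. Leaving out the 21 shared barcodes, or the 6% of cells with the most UMIs as a stand-in for doublets, was tried; the first, and the splits of Hoxd UMI classes, were chosen after seeing the data. Thinning to 3000 UMIs moved 51 of 72 shares, as depth sets them. No paired analysis was possible because each tissue has 1 library. Depth limits Hoxd3, Hoxd4 and all colon BEC values, many of which rest on under 20 UMIs.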

Other observations

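In the small intestine the 24 cells labelled Proliferating, too few for a comparison, held 9 UMIs of Hoxd8 (41.0 CPM) and 5 UMIs of Hoxd10 (22.8 CPM, in 3 cells), and 0 of Hoxd4 and Hoxd3. The 8 colon pericyte cells and the 4 colon Proliferating cells held 0 UMIs of any of the 7 genes.

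In colon LECs Hoxd4 was 36.2 CPM in cells with Y-linked UMIs alone and 11.9 CPM in cells with Xist UMIs alone, a log2 ratio of 1.61 with a counting interval of -0.04 to 3.38. In SEMFs with 2 or more UMIs of Hoxd8 to Hoxd11, the genes with the highest ratio over cells with 0 included Lrrc7 (2.47, 2.16 to 2.78), Ces1d (2.43) and the chemokine gene Ccl11 (2.18), and those with the lowest included Igfbp5 (-2.93, -3.67 to -2.28) and Igfbp6 (-2.17), which encode binding proteins of insulin-like growth factors. In small intestinal LECs Hoxd3 was found, at 3000 UMIs per cell, in 2 of 236 cells with a Hoxd8 UMI (0.847%) and in 51 of 1710 without (2.98%); the Clopper-Pearson 95% interval of the first is 0.10 to 3.03%, which includes the second.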
